A study of Rattus norvegicus with 15 samples.

Results

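Receptors for classical neurotransmitters and for extracellular purines were followed in the olfactory epithelium of Brown Norway rats. A probe counted as a member when its gene name on the array began with the symbol of an adrenergic, muscarinic, nicotinic, dopamine, serotonin, histamine, P2X, P2Y, GABA-A, GABA-B, glycine, AMPA, kainate, NMDA or metabotropic glutamate receptor gene. This gave 142 probes for 117 gene names, of 41012 probes and 35561 names on the array that were not controls. One of these names, Drd1ip, belongs to calcyon (Caly), a membrane protein first described as a partner of a dopamine receptor and not itself a receptor. It was kept, because the choice of members rested on names alone. RefSeq now calls P2rxl1 P2rx6 and Drd1a Drd1, and the other 114 names are still in use.

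Ligand-gated channels such as the nicotinic, GABA-A, glycine, ionotropic glutamate and P2X receptors are built from several subunits and let ions pass within milliseconds of binding their ligand. Muscarinic, adrenergic, dopamine, P2Y, GABA-B and metabotropic glutamate receptors act more slowly through G proteins. In the olfactory mucosa, autonomic and trigeminal nerve endings release acetylcholine, noradrenaline and peptides, and ATP from stressed cells acts on sensory neurons, sustentacular cells and basal cells.

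All animals were naive, with no odorant exposure and no genetic change named, and were 6 weeks old. Arrays came from 4 male rats (1, 2, 5 and 6; 7 arrays) and 4 female rats (3, 4, 7 and 8; 8 arrays), with nostrils A and B hybridized separately except in male 1, for which only nostril A passed the RNA quality threshold. The methods name the sample left out as the left one of a male from the breeder Elevage Janvier, so that nostril A of male 1 is its right one. By the paper, 2 males and 2 females came from each of 2 suppliers, Elevage Janvier and Charles River Laboratories. For the other rats the labels give neither the side of a nostril nor the breeder, so suppliers were not compared. The tissue was dissected whole, so the values are averages over sensory neurons, sustentacular, basal, glandular, nerve and blood cells, and fewer cells of a type cannot be told apart from less RNA per cell. All 5 olfactory neuron markers (Omp, Gnal, Cnga2, Adcy3 and Gap43) were expressed, Omp with log2 levels between 7.34 and 7.69 over the 15 arrays.

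Levels are given as log2 of the signal over the median signal of the same array, so that 0 is the level of the median probe and -3.32 is the floor. Since probes differ in brightness, no ranking of genes by level was made. Counts above the array median and summed levels of marker lists depend on the brightness of the probes, and the brightest probe dominates a sum. The arrays had 26233 to 28741 probes well above background and median signals of 57.4 to 83.4 intensity units. The 4 arrays of slide 3 were the lowest on both measures, with 26233 to 27086 probes and 57.4 to 61.4 units. The lowest signal that was still called well above background was 10.01 to 14.49 units. This is a minimum over all called probes, and a probe above it could still go uncalled. The 4 slides held males 1 and 2 with nostril A of female 3 (slide 1), nostril B of female 3 with female 4 (slide 2), males 5 and 6 (slide 3) and females 7 and 8 (slide 4).

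Receptor probes were detected less often than the array as a whole. With the thresholds of the study, 59 of the 142 probes (41.5%) were expressed, that is well above background on at least 11 of the 15 arrays, where 65.1% of all probes were. A further 28 (19.7%) were weakly expressed, on 1 to 10 arrays, and 55 (38.7%) were detected on 0 arrays. On all 15 arrays 51 of the 142 (35.9%) were detected, against 61.3% of all probes. Only 30 (21.1%), from 30 genes, stayed above the array median on every array, against 46.4% of all probes. By gene, 53 had at least 1 expressed probe, 22 were weakly expressed and 42 had no detected probe. These shares were not tested.

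The families differed widely in these counts. GABA-B receptor probes were expressed without exception (3 of 3), and 5 of 6 AMPA probes were expressed. P2X (6 of 9, 66.7%) and adrenergic probes (7 of 11, 63.6%) were near the 65.1% of all probes. In contrast, 2 of 19 serotonin probes, 0 of 4 histamine and 0 of 5 glycine receptor probes were expressed. GABA-A receptor probes were mixed, with 5 expressed, 10 weakly expressed and 5 not detected.

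**Figure D1:**
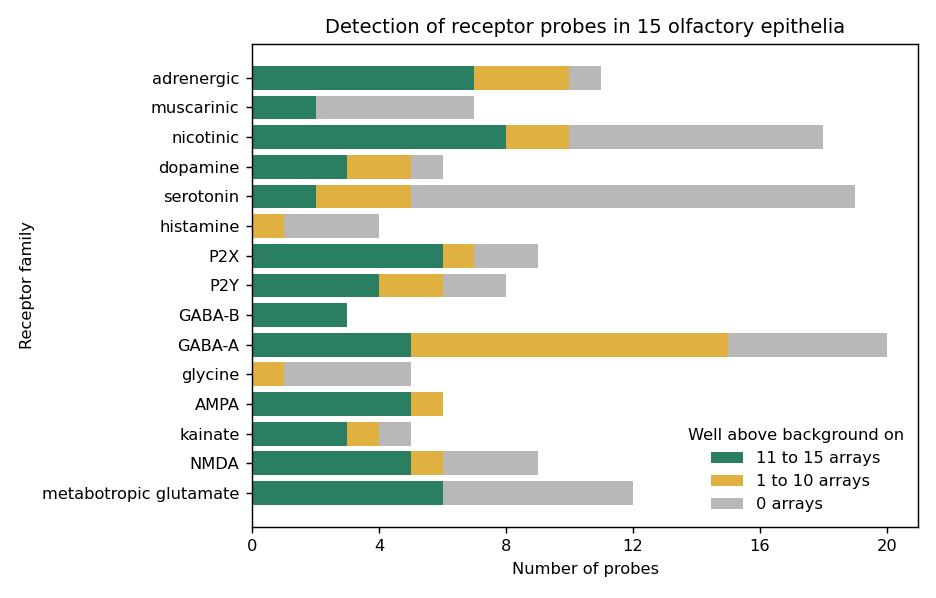
Number of receptor probes (horizontal axis) in each of 15 families (vertical axis), coloured by the number of arrays on which the probe was well above background. All 3 GABA-B probes were on at least 11 arrays, while 14 of 19 serotonin probes, 4 of 5 glycine receptor probes and 3 of 4 histamine probes were on 0 arrays.

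Among the receptors for noradrenaline and adrenaline, the beta receptor Adrb1, which raises cyclic AMP through Gs, was detected on all 15 arrays (0.88 to 1.72). Adrb3, the receptor of fat tissue, was detected on 1 array. The alpha-2 receptors, which lower cyclic AMP through Gi, were detected throughout: Adra2a at 0.19 to 1.36, Adra2b at -1.32 to 0.08 and Adra2c at 4.19 to 5.36. The alpha-1 receptor Adra1d, coupled to Gq, ranged from -1.65 to 0.88.

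Of the muscarinic acetylcholine receptors, Chrm3, the Gq-coupled receptor of gland secretion, was steady at 3.61 to 4.22, and its rat means were 3.84 ± 0.12 in males and 4.01 ± 0.09 in females (SD, n = 4 rats each). Chrm4, which couples to Gi, was at 0.35 to 1.63 by 1 probe. Chrm1, Chrm2 and Chrm5 were detected on 0 arrays. Acetylcholine itself is made by Chat, loaded by Slc18a3 and its precursor choline taken up by Slc5a7. Chat was detected on 1 array and both transporters on 0, whereas Ache, which breaks acetylcholine down, was detected on 15 arrays by 2 of its 3 probes. Of the 2 probes tested in this list of 5 genes, 0 passed a threshold of 5% in any comparison.

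Most nicotinic subunits were detected either on nearly all arrays or on 0 arrays. Chrna7, a subunit that forms channels by itself, and Chrna9 and Chrna10, which join in the channel of cochlear hair cells, were detected on all 15, as were Chrna5, Chrnb2, Chrnd and Chrne. Chrna3, the main alpha subunit of autonomic ganglia, was detected on 0 arrays and its usual partner Chrnb4 on 3. Of the muscle subunits, Chrna1, which every muscle receptor needs, and the fetal subunit Chrng were on 0 arrays, while Chrnd was at 0.46 to 0.83, Chrne at -0.14 to 0.94 and Chrnb1 at -2.22 to -1.22 (13 arrays). Musk, the kinase of the neuromuscular junction, was on 0 arrays and Rapsn, which clusters the receptor there, on 1. Of the skeletal muscle markers, Tnnt3 and Myog were each detected on 12 arrays, Acta1 and Ckm each on 2 and Myh4 on 0. The summed level of the 5 muscle markers on the array was 15.2 times the array median in nostril A of female 7 and 3.74 in nostril A of male 6, and 0.61 to 1.12 on the other arrays. Chrne was 0.12 and 0.77 on those 2 arrays and Chrnd 0.83 and 0.46.

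Dopamine receptor Drd2, a Gi-coupled autoreceptor, had among the narrowest ranges, 2.31 to 2.71, and its rat means were 2.55 ± 0.09 in males and 2.58 ± 0.09 in females (SD, n = 4 rats each). Drd4 lay at 1.13 to 1.73. Drd1a was detected on 0 arrays, Drd3 on 1 and Drd5 on 6. The calcyon probe lay at 5.61 to 6.31. Tyrosine hydroxylase (Th), which starts dopamine synthesis, swung from -2.50 to 2.21 between arrays, while Ddc, which completes it, stayed at 6.73 to 7.34.

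Serotonin and histamine receptors were mostly undetected. Htr3a, the ion channel subunit among them, was at 1.65 to 2.19 and Htr2b at -1.47 to -0.68, while its partner subunit Htr3b and the receptors Htr1a, Htr2a, Htr2c and Htr4 were on 0 arrays. Hrh1, Hrh2 and Hrh4 were on 0 arrays and the neuronal autoreceptor Hrh3 on 9. Hdc, which makes histamine and is abundant in mast cells, lay at 4.10 to 4.76. Tph2, the neuronal enzyme of serotonin synthesis, was on 0 arrays. Tph1, the enzyme outside the brain, differed among rats by 1 of its 2 probes, with a range of 0.85 over rat means among males and 0.60 among females (adjusted p = 0.045), lowest in male 1 at -0.60. The mast cell markers (4 of 4 genes expressed) also differed among rats, with 4 of 5 tested probes past 5%, and their summed level, 18.2 to 51.0 times the array median, was lowest in male 1. Nostril B of female 4 had nearly as low a sum (18.5) but the highest Tph1 level (0.41), and nostril B of male 6 had the highest sum and a Tph1 level of -0.31. Their part in the Tph1 values was not tested.

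Of the probes for receptors of ATP and other nucleotides, 6 of 9 P2X (66.7%) and 4 of 8 P2Y probes (50%) were expressed, near or under the 65.1% of all probes. The channels P2rx4 (3.36 to 4.11) and P2rxl1 (3.72 to 5.56) were above the array median on all 15 arrays. P2rx2 and P2rx3, which join in the channel of sensory nerve endings, were each detected on all 15 arrays by both of their probes. P2rx7, the channel of immune cells that opens a large pore, was on 0 arrays and P2rx1, the smooth muscle and platelet channel, on 1. Of the G protein-coupled receptors, P2ry2, which binds ATP and UTP, was at 3.59 to 4.34, the UDP receptor P2ry6 at 6.18 to 6.76, the UDP-sugar receptor P2ry14 at 2.50 to 3.11 and the microglial ADP receptor P2ry12 at 2.10 to 3.22. P2ry1, another ADP receptor, was weak, on 5 arrays, and P2ry13 was on 0. In a list of 10 further genes for release and breakdown of ATP and for adenosine receptors, 9 were on the array and 8 expressed, among them Entpd2 (4.99 to 5.55) and Entpd3 (5.43 to 6.05), which split ATP outside the cell. Of their 11 tested probes, 0 passed 5% in any comparison.

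GABA-B receptors need a subunit that binds GABA, Gabbr1, and one that couples to the G protein, Gabbr2. Gabbr1 lay at 3.77 to 4.13 by its main probe and Gabbr2 at 5.79 to 6.36. Among GABA-A subunits only Gabrp, an epithelial subunit, was above the array median on all 15 arrays, at 3.64 to 4.98. Gabrd (-0.24 to 1.72) and Gabrb1 (-2.46 to 0.37) had wider ranges than the GABA-B probes. Glutamate receptors varied to different degrees. The kainate subunit Grik5 was steady at 4.88 to 5.44. The NMDA core subunit Grin1 ranged from 1.60 to 2.70 by its main probe. The AMPA subunit Gria2, which keeps calcium out of the channel, was at 0.62 to 1.41 and the Gi-coupled Grm2 and Grm3 at 0.24 to 2.07 and 0.38 to 1.99. Grin2c ranged from 2.84 to 5.09 and the AMPA subunit Gria1 from -3.32 to 0.72. The vesicular transporter Slc17a6, which loads glutamate in olfactory neurons, was at 6.22 to 6.77 on every array.

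Several receptor genes carried more than 1 probe, which allowed the calls to be compared within a gene. Of 21 such genes, 12 had all probes in the same class. In 3 of the 21, Chrm4 and Chrna7 among them, a probe was detected on all 15 arrays and another on 0. Adra1b was detected on 15, 8 and 3 arrays by its 3 probes, and Gria4 on 15 and 4. The gene-level statements above therefore rest on the probe of each gene that was detected on the most arrays.

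**Figure D2:**
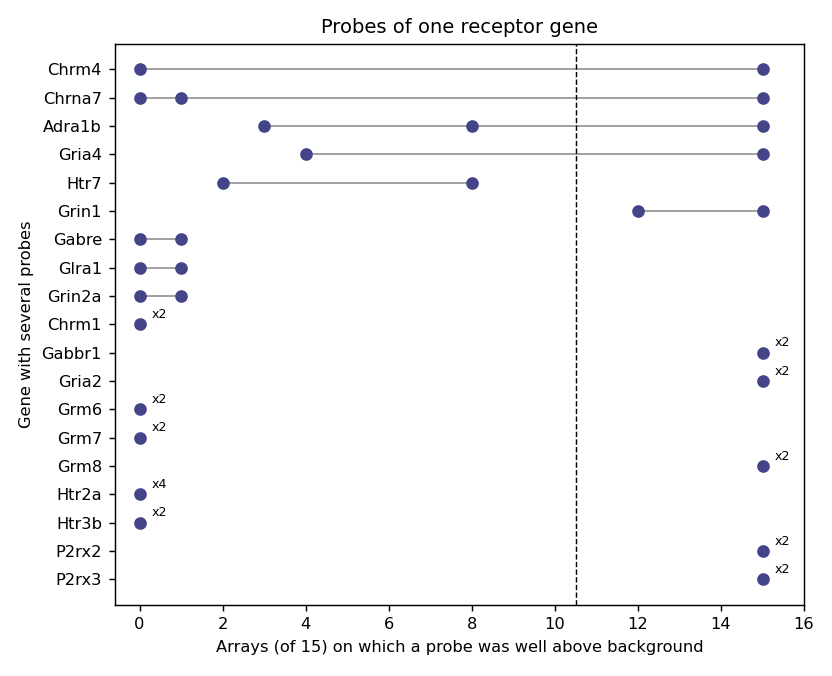
Each dot is a probe of a receptor gene with several probes (vertical axis; 19 of the 21 genes), placed at the number of arrays on which it was well above background (horizontal axis); x2 and x4 mark probes at the same place and the dashed line separates 10 from 11 arrays. Chrm4 and Chrna7 have a probe at 15 and another at 0, whereas both probes of Gabbr1, Gria2, Grm8, P2rx2 and P2rx3 lie at 15.

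For 10 probes of 9 genes the array annotation names a splice or truncated variant. Of the 10, 7 probes for 6 genes (Htr2a, Gabre, Grin3a, Grm6 and Grm7 among them) were detected on 0 arrays, and 3 were expressed. The probe for Gabbr1 variant 1d was on 15 arrays, between -1.22 and -0.49. The probe for Grm8 variant 8b was also on 15, between -1.02 and -0.22. It is shown with the main Grm8 probe because the variants differ at their tails and the probes overlap there. The longest run that the probes share, 18 bases, is in capitals, and both span an intron by their rn3 positions on the minus strand, chr4:54207890-54214387 and chr4:54207858-54214300.
Grm8: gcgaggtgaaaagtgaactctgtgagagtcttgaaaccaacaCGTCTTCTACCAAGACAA
Grm8 variant 8b: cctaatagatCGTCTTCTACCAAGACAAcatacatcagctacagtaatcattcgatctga
The main Grm8 probe lay at -0.11 to 0.77. Because 18 of 60 bases are common, some signal shared between these probes was not tested. The third expressed variant probe is that of Grin1 NMDAR1-4b, at rn3 chr3:3471906-3472908 on the minus strand. It falls in the N1 cassette, a stretch of the extracellular domain encoded by an exon that is spliced in or out.
Grin1 variant 4b: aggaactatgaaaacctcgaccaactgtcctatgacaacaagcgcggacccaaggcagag
It was detected on 12 arrays, between -2.41 and -0.45, lowest in male 5 and highest in male 1. The rat means of this probe spanned 1.54, and those of the other Grin1 probe 0.51.

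Individual rats of the same sex were compared next, with the difference between their nostrils as the error. The nicotinic genes Chrna7 and Chrna9 passed the threshold of 1%, that is 2 of 65 tested receptor probes (3.08%), where 2.79% of all 27574 tested probes did. At 5% the number rose to 6 of 65 (9.23%), against 16.1% of all probes, and 15 of 65 (23.1%) had an unadjusted p under 0.05, against 37.1%. The additional 4 were both P2rx2 probes, P2ry14 and P2ry2. The share of receptor probes was thus near or under that of the array.

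Chrna7 separated the rats most sharply. The detected probe was printed 10 times on each array and was well above background on all 15. Its level was 3.00 in male 1, 3.72 and 3.78 in the nostrils of male 2, 2.45 and 2.46 in male 5, and 2.60 and 2.38 in male 6. Among females it was 3.80 and 3.84 in female 3, 3.77 and 3.90 in female 4, 3.61 and 3.57 in female 7, and 3.86 and 3.82 in female 8. Males 1, 5 and 6 were thus low and male 2 lay among the females. The rat means spanned 1.38 over all 8 rats, 1.30 among males (2.46-fold) and 0.25 among females (1.19-fold), the largest gap between the nostrils of a rat was 0.22, and limma's F within sexes was 60.8 (adjusted p = 0.000243; 0.0352 without male 2). The summed level of the blood markers Hbb and Alas2 (2 of 3 listed genes on the array) was also high in males 1, 5 and 6, at 727 to 1384 times the array median, and at 171 to 225 in male 2. In females it ranged from 58.0 to 919, with female 4 at 743 and 919. The part of blood in the Chrna7 result was not tested.

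The call rested on 1 of 3 Chrna7 probes. The others were detected on 1 and 0 arrays. The array annotation places the detected probe at rn3 chr1:117665386-117665445 and the probe seen on 1 array at chr1:117665410-117665469, both on the minus strand. These positions overlap by 36 bases, but the longest run the sequences share is 6 bases, so the annotated positions are uncertain. Whether the detected probe lies in the Chrna7 transcript was not tested, and the name Chrna7 here is that of the array annotation. The probe on 0 arrays spans 10866 bases, chr1:117726771-117737636 on the same strand, and so crosses a splice junction by its position. The first 30 bases of the other probes, and the whole of this one, show that they are different stretches.
Chrna7, 15 arrays: agaaaaatgactgatcctgaactgtcctgg
Chrna7, 1 array: tcaaactgcaaacttctctgctagtttctc
Chrna7, 0 arrays: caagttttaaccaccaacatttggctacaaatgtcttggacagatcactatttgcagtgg

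Chrna9 was lowest in males 5 and 6 as well, but male 1 was not low. Its levels were 2.68 in male 1, 2.25 and 2.17 in male 2, 1.79 and 1.88 in male 5, and 1.85 and 1.76 in male 6. In females they were 2.75 and 2.98, 2.96 and 3.21, 2.75 and 2.68, and 2.28 and 2.48 for females 3, 4, 7 and 8. The 4 arrays of males 5 and 6, all on slide 3, lay below the other 11. The rat means spanned 1.28 over all 8 rats, 0.88 among males (1.84-fold) and 0.70 among females (1.63-fold), and the test within sexes gave F = 15.9 (adjusted p = 0.00653). The adjusted p rose above 0.01, to at most 0.0226, when any rat except female 3 was left out, and 0.326 with normexp. The probe maps to rn3 chr14:44909601-44909660 on the minus strand, and its first 30 bases are shown as the identity of the measured stretch.
Chrna9: ctgaaaacgtccagaaacaaagacctttcc

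P2rx2, the ATP-gated channel subunit of sensory nerves, was measured by a pair of probes that moved together. By the probe at rn3 chr12:46354114-46354173 on the plus strand, the rat means were -0.75, -0.11, -0.15 and -0.30 in males 1, 2, 5 and 6, and -0.37, -0.88, -0.38 and -0.30 in females 3, 4, 7 and 8. By the probe at chr12:46354936-46354995 they were 0.65, 1.17, 1.22 and 1.10 in those males and 1.02, 0.52, 1.02 and 1.01 in those females. Male 1 and female 4 were the lowest on both. The ranges over rat means were 0.63 and 0.57 among males and 0.58 and 0.51 among females (adjusted p = 0.0219 and 0.0204). The first probe, shown as the identity of the measured stretch, shares no run longer than 5 bases with the second.
P2rx2: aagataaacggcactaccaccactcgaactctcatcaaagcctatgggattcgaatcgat
Without female 4 neither probe passed 5% (adjusted p = 0.0947 and 0.106), and with normexp background correction the ranges over all 8 rats fell from 0.76 and 0.70 to 0.27 and 0.51 (adjusted p = 0.914 and 0.384).

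P2ry14 and P2ry2 differed less. P2ry14 was low in males 1 and 2 (rat means 2.52 and 2.56), higher in males 5 and 6 (2.97 and 3.03), and at 2.80, 2.73, 3.01 and 2.95 in females 3, 4, 7 and 8 (range 0.51 among males and 0.28 among females, adjusted p = 0.0255). P2ry2 ran the other way in females, at 4.25 and 4.21 in females 3 and 4 against 3.76 and 3.73 in females 7 and 8, and at 3.73, 4.00, 3.70 and 3.83 in males 1, 2, 5 and 6 (range 0.30 among males and 0.52 among females, adjusted p = 0.0446). The P2ry14 call was lost without female 7 or male 2 (adjusted p = 0.0539 and 0.0696), and the P2ry2 call when any of 6 rats was left out. In limma P2ry14 and P2ry2 also failed 5% with slide as a block (adjusted p = 0.943 and 0.590) and with normexp (0.801 and 0.914). The same held without a detection filter (0.0507 and 0.113), and P2ry2 failed with the deposited ratios (0.0646).

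**Figure D3:**
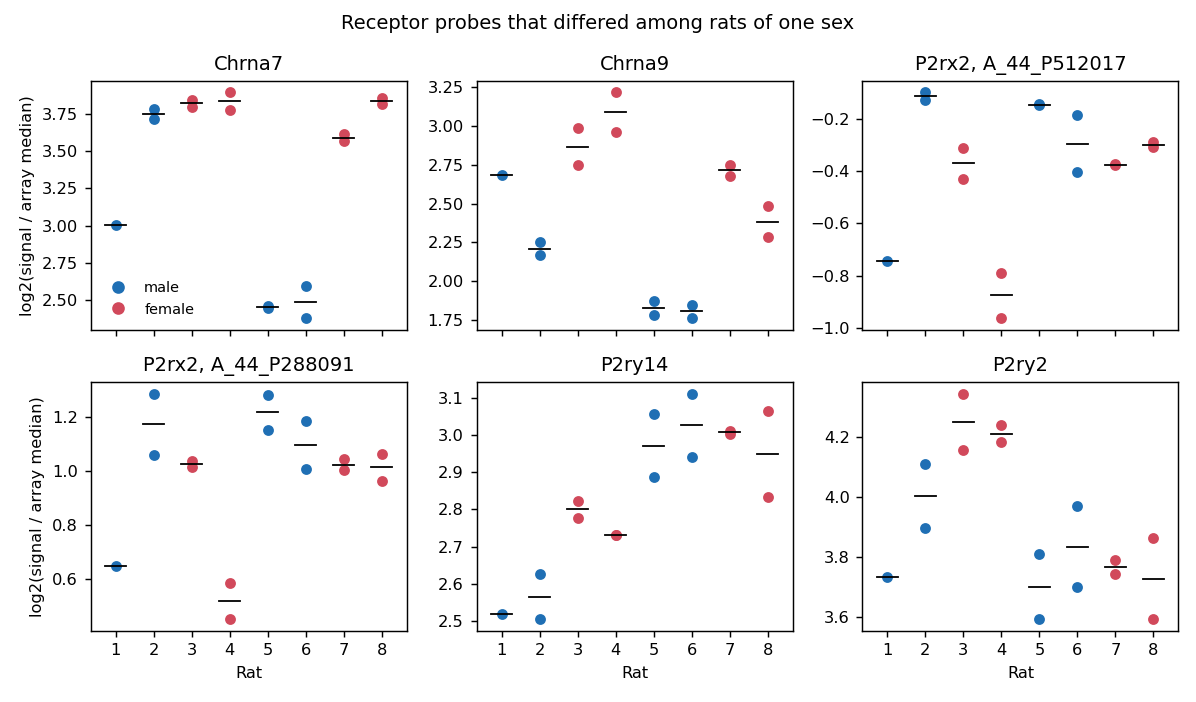
Level of 6 receptor probes, as log2 of signal over the array median (vertical axes), in each of 8 rats (horizontal axes). Dots are arrays, 1 per nostril, blue for males and red for females, and bars are rat means; Chrna7 is low in males 1, 5 and 6, Chrna9 in males 5 and 6, and both P2rx2 probes in male 1 and female 4.

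Rat and slide overlapped, since males 5 and 6 shared slide 3 and females 7 and 8 shared slide 4. With slide as a block, 0 of 65 receptor probes were called at 1% or 5%, where 1 and 32 of all 27574 probes (0.116% at 5%) were, and 14 (21.5%) had an unadjusted p under 0.05, against 17.1% of all probes. In that fit limma gave an adjusted p of 0.0778 for Chrna7 and 0.195 for Chrna9. On slide 1, Chrna7 was 3.00 in male 1 (1 array) against 3.72 and 3.78 in male 2, and on slide 3 males 5 and 6 overlapped. The part of the slide in the Chrna7, Chrna9, P2ry14 and P2ry2 calls cannot be told apart from the rats on it. Rats of each sex also came from 2 suppliers, not named in the labels, so supplier cannot be told apart from rat either. With background correction by normexp the count was 0 as well, where 0.733% of all probes passed 5%, with adjusted p = 0.0540 for Chrna7 at a range of 1.33.

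Males and females were compared on rat means. None of 66 tested receptor probes passed 1% or 5% in limma, where 0.0434% and 0.0724% of all 27625 tested probes did. At an unadjusted p under 0.05 there were 5 (7.58%), against 17.1% of all probes, and the methods' t-test also gave 0 after adjustment, with 5 under 0.05. Receptor probes were higher in females in 32 of 66 cases, with a median difference of -0.01, against 0.01 over all probes.

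The 5 probes with the smallest p were those of P2rx4, P2ry6, Chrna7, P2ry12 and Chrna9. P2rx4 was 3.56 ± 0.10 in males and 3.89 ± 0.10 in females (SD, n = 4 rats each), a difference of 0.33 ± 0.08 (SE; 1.26-fold, adjusted p = 0.109), and the rat means did not overlap. P2ry6 was 6.57 ± 0.09 in males and 6.35 ± 0.03 in females, a difference of -0.22 ± 0.06 (adjusted p = 0.125), again without overlap. These were the 2 of 65 receptor probes (3.08%) with separate groups, against 11.3% of all probes. Chrna7 differed by 0.85 ± 0.25 (1.80-fold, adjusted p = 0.147), with male 2 among the females as above, and Chrna9 by 0.63 ± 0.21 (adjusted p = 0.181). P2ry12 was 2.95 ± 0.19 in males and 2.54 ± 0.24 in females, a difference of -0.42 ± 0.13 (adjusted p = 0.172). The summed level of the 4 macrophage and microglia markers (Cd68, Aif1, Csf1r and Itgam, all expressed) was 55.0 to 86.9 times the array median in males and 46.9 to 66.7 in females, and its part in the P2ry12 values was not tested.

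P2rx4 also varied with the slide. It lay at 3.36 to 3.62 on slide 1, 3.89 to 4.11 on slide 2, 3.46 to 3.74 on slide 3 and 3.85 to 4.04 on slide 4. Female 3, the only rat split between slides, had 3.36 in nostril A on slide 1, the lowest value of all, and 4.11 in nostril B on slide 2, the highest. Within slide 1 the female value was lower than the male values, by 0.19, and with slide as a block, where the comparison rests on this 1 female array, the difference was -0.20. Within slide 1 the differences were 0.42 for Chrna7, 0.30 for Chrna9, -0.36 for P2ry12 and -0.11 for P2ry6, in the direction of the pooled values. On the other slides sex and slide cannot be told apart.

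**Figure D4:**
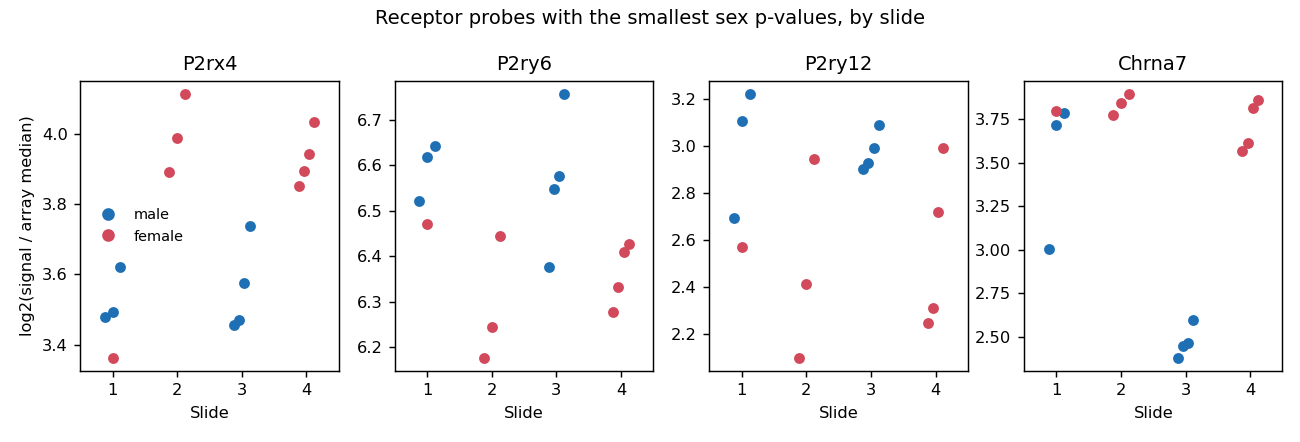
Level of 4 receptor probes, as log2 of signal over the array median (vertical axes), on each of 4 slides (horizontal axes); each dot is an array, blue for males and red for females. On slide 1, the only slide with both sexes, the female array lies below all 3 male arrays for P2rx4, and on slides 2 and 4 the females lie between 3.85 and 4.11.

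Nostrils A and B of the same rats were compared with rat as a block. In limma 0 of 65 receptor probes, and 0% of 27574 probes, passed 1% or 5%. At an unadjusted p under 0.05 there were 5 receptor probes (7.69%), against 5.89% of all probes: those of Adra1b (2 probes), P2rx3, Grm2 and Grik4. Their differences, B minus A, were -0.80 ± 0.22 and -0.19 ± 0.08 for Adra1b, 0.35 ± 0.13 for P2rx3, -0.50 ± 0.19 for Grm2 and -0.30 ± 0.12 for Grik4 (SE, n = 7 rats), each with an adjusted p of 0.781. The larger Adra1b difference is that of a probe detected on 8 arrays, with nostril B of female 3 at the floor, and it was -0.34 with a floor at 0.2 and -0.11 with normexp. The other 4 differences with normexp were -0.11 for Adra1b, 0.14 for P2rx3, -0.40 for Grm2 and -0.07 for Grik4. Without the replicate block the count was also 0.

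Nostrils nevertheless differed strongly within some rats, in directions that changed from rat to rat, and many of the probes concerned were those of GABA-A and glutamate receptors. The 10 expressed probes with the widest range over rats included those of Gria1, Gria4, Gabrb1, the N1 cassette of Grin1, Chrna7, Grin2c, Chrna9 and Gabrd, with ranges of 1.25 to 2.32. Apart from Chrna7 and Chrna9, these are GABA-A or glutamate receptor genes, and none of the 6 passed 5% among rats (adjusted p from 0.0722 to 0.493). The median range was 0.66 over the expressed receptor probes and 0.46 over all expressed probes.

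The AMPA subunit Gria1 showed this most among them. It was -0.37 in male 1, and in nostrils A and B it was -0.05 and 0.43 in male 2, -1.40 and -0.69 in male 5, and -0.32 and -2.39 in male 6. In females it was 0.07 and -3.32 (the floor) in female 3, 0.72 and -0.82 in female 4, -3.08 and -1.18 in female 7, and 0.41 and -0.30 in female 8. Nostril B of female 3 and nostril A of female 7 were the lowest arrays. Female 3 had nostril A on slide 1 and nostril B on slide 2, so nostril and slide cannot be told apart in this rat. Both nostrils of female 7 were on slide 4. Grin2c, an NMDA subunit, was 4.22 and 2.84 in female 3 and 2.98 and 3.91 in female 7, and these low arrays lay below the other 13. Gabrb1, a beta subunit of GABA-A receptors, was 0.28 and -1.53 in female 3 and -2.46 and -0.81 in female 7, again the lowest arrays.

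The pattern extended over both receptor classes. Of the 22 expressed GABA-A and glutamate receptor probes with values on all arrays, 21 were lower in nostril B than in nostril A of female 3, with a median difference of -0.64, against 49.8% of all expressed probes and a median of 0.00. In female 7, 18 of the 22 were lower in nostril A, with a median difference of -0.21, against 53.3% of all expressed probes and a median of -0.01. All GABA-A and NMDA probes were lower in both arrays, and the other families of these classes were less uniform. Kainate probes had 2 of 2 lower in female 3 and 1 of 2 in female 7. AMPA probes had 5 of 5 and 4 of 5, and metabotropic glutamate probes 5 of 6 and 4 of 6. The other receptor families had 22 of 35 lower in nostril B of female 3 and 16 of 35 lower in nostril A of female 7. Among them, both muscarinic probes (medians -0.71 and -0.32) and all 3 dopamine family probes (-0.26 and -0.18) were lower in both arrays. These probes were grouped after their values had been seen, and the counts describe the arrays and were not tested. In female 3 they compare slide 1 with slide 2 as well as nostril A with nostril B.

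Several markers of olfactory bulb neurons moved with these receptors. Of 8 such markers, 6 were found on the array and 5 were expressed. Slc32a1, the vesicular GABA transporter, was 3.11 and -0.06 in nostrils A and B of female 3 and 0.58 and 2.03 in female 7. Gad2, which makes GABA, was 0.42 and -2.01 in female 3 and -1.36 and -0.29 in female 7, and Th was 0.60 and -2.50, and -1.42 and -0.41. Gad1 was expressed by 1 of its 3 probes, which ran in the same direction in both rats, while its other probes were at the floor in both nostrils of female 7. Pcdh21, also made by the sensory epithelium, stayed at 10.03 to 10.52, and differed by 0.45 (A minus B) in female 3, -0.13 in female 7 and -0.17 in female 8. Slc17a7, of mitral cells, was weak, on 6 arrays, at -1.65 and -3.32 in female 3 but -2.74 and -2.97 in female 7, the opposite direction. The summed level without Pcdh21 ranged from 5.11 to 13.48 times the array median in males and from 1.60 to 18.18 in females, lowest in nostril B of female 3 and highest in nostril A of female 8. With Pcdh21 it ranged from 1049 to 1189 and from 1076 to 1481. No marker of the list found on the array was on 0 arrays. Among the olfactory neuron markers, Omp differed by 0.12 (A minus B) between the nostrils of female 3 and by -0.01 in female 7, and Cnga2 was 8.12 and 8.82 in female 3, lower in nostril A, and 8.80 and 8.91 in female 7. Whether bulb tissue contributed to the receptor signals was not tested, and in female 3 nostril cannot be told apart from slide.

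**Figure D5:**
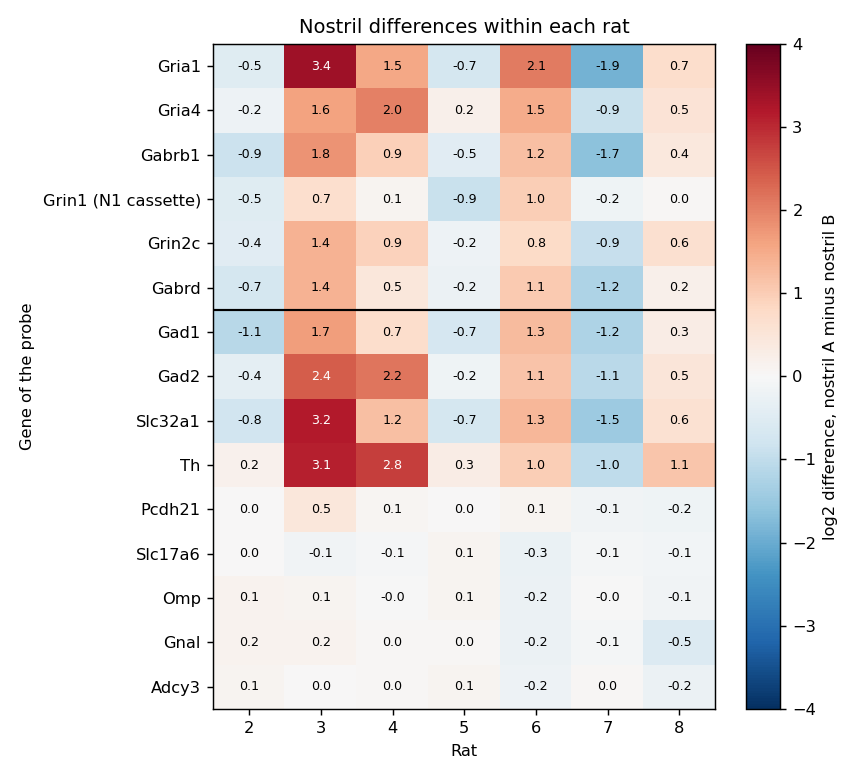
Difference between nostrils A and B on the log2 scale (colour and number) for probes (rows) in the 7 rats with both nostrils (columns); the line separates 6 GABA-A and glutamate receptor probes from markers of bulb neurons (Gad1 to Pcdh21), the transporter Slc17a6 and olfactory neuron markers. The receptors and Gad1, Gad2 and Slc32a1 were higher in nostril A of females 3, 4 and 8 and male 6 and higher in nostril B of female 7, while Omp differed by at most 0.22 in either direction and Gnal by -0.55 in female 8. The nostrils of female 3 were on different slides.

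The genes that supply and remove these transmitters, taken from lists of fixed content, are to be read against the 16.1% of all probes that passed 5% among rats. Of 7 tested probes in the GABA and glycine list, 1 passed 5% among rats, that of the GABA transporter Slc6a13 (range 2.01 among males and 0.57 among females, adjusted p = 0.046), lowest in male 1 at 0.19 and at 2.20 in male 2. The glial glutamate transporter Slc1a3 was lowest in nostril B of female 3 (4.78) and highest in nostril A of female 8 (6.88) by 1 of its probes. Of 11 tested probes in the glutamate list, 2 passed, among them 1 of 3 probes of glutamine synthetase Glul (range 0.63 among males and 0.21 among females, adjusted p = 0.018). Of 8 tested probes in the catecholamine list and 9 in the list of scaffolds and arrestins, 0 passed. Between the sexes and between nostrils, 0 probes of these lists passed 5%.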

How the data were processed

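Total RNA was labeled with Cy3 and hybridized to Agilent 4 x 44K whole rat genome arrays. The deposited scanner files hold spot intensity, extracted by the authors with Agilent Feature Extraction and background-subtracted; intensities were not scaled between arrays. The deposited table of ratio values, each signal over its array median and then over its probe median, was used as an alternative. Gene names and rn3 positions are those of the files.

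Spots marked as outliers were left out of the signal values, which removed all spots of Grin2d and 1 array of Grik2. Detection calls used all spots, so Grin2d counted as expressed, on 15 arrays. Replicate spots of a probe were averaged, scaled to the median of their array with a floor at 0.1 of that median, and put on the log2 scale. Probes well above background on at least 7 of 15 arrays were tested with limma 3.58.1 in R 4.3.3 (lmFit, eBayes with trend, two-sided, Benjamini-Hochberg over all tested probes). The sexes were compared on 8 rat means, nostrils with rat as a block, rats of the same sex by limma's F over 15 arrays. The fits were tested on simulated data. Precision is limited by the number of animals.

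Probes named were those past 5% in a test, those above the array median on all arrays, the 10 with the widest range over rats, up to 6 genes with discordant probes, and a fixed set of receptor genes. Results of a few of these genes are not reported here. The members and lists were chosen with earlier results of these data known.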

Additional observations from a re-analysis of the deposited data

Results flagged for a closer look

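In 9 of 114 groups of 4 rats (57 expressed receptor probes in each sex), the gap between an outlying rat and its nearest neighbour took up more of the group's range than Dixon's 95% limit allows. Chance alone flags about 1 group in 20. The share flagged over all expressed probes was not computed, so this count cannot be set against the array as a whole. Both P2rx2 probes set female 4 apart on the low side, with gaps of 0.866 and 0.978 of the range (rat means -0.88 and 0.52). Female 7 was low for the detected Chrna7 probe (0.929 of the range, rat mean 3.59) and for the main Grin1 probe (0.885, 1.78), and high for Gabrq, a GABA-A subunit (0.866, 0.45). Female 8 was high for Chrm4 (0.889, 1.56). Male 6 was high for Gabrp (0.908, 4.81) and for Chrne, the adult muscle nicotinic subunit (0.894, 0.82; 0.77 in nostril A and 0.88 in nostril B, where skeletal muscle markers summed to 3.74 and 0.96 times the array median). Male 1, measured on 1 array, was high for Chrnb2, a neuronal nicotinic subunit (0.900, -0.38).

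For Chrna5, a nicotinic subunit, nostril B was above nostril A in all 3 males with both nostrils (in male 5 by 0.00) and below it in all 4 females. The mean difference, B minus A, was 0.04 in males and -0.22 in females, 0.261 apart. It was not tested whether this exceeds the spread, and 1 of 57 receptor probes (1.75%), against 0.867% of all expressed probes, had opposite signs in all rats of each sex.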

How the results depend on the processing

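Among rats of the same sex, 2 receptor probes passed 1% and 6 passed 5%. With slide as a block and with normexp background these counts were 0 and 0, with the deposited ratios the first was 1, and without a detection filter it was 3. Leaving out a rat gave 0 to 2 at 1%, with 2 without female 3, 0 without male 2 and 1 without any other rat, and 4 to 8 at 5%. Between the sexes the count of 0 at 1% became 1 with slide as a block (Drd1ip, calcyon, higher in females by 0.66) and 1 with arrays taken as independent (Chrna9), where 1.70% and 3.74% of all probes passed. The former rests on 1 female array against 3 male arrays of slide 1. At 5% it became 1, 5 and 2 (1.54%, 7.69% and 3.08%) with slide as a block, with independent arrays and with rat as a random block, where 5.63%, 12.6% and 3.39% of all probes passed, and leaving out a rat gave 0 to 0. The P2rx4 difference turned to -0.20 with slide as a block and to -0.19 within slide 1. Between nostrils the count was 0 under every alternative run, the one with no replicate block included. Of 142 probes, 59 were expressed, 84 when every positive and significant signal counted, 51 when all 15 arrays were required, and 58 to 60 when a rat was left out. Of 259 recomputed probe differences, 224 kept direction and, where an adjusted p was computed, side of the 5% threshold. Values within slide 1 have no p. Further, 25 ranges over rats no longer passed 5%, and 7 sex differences passed it only with arrays as independent or rat as a random block. The cause of these changes was not tested. No probe under 10.01 to 14.49 units was called and a brighter probe could also go uncalled, so a receptor on 0 arrays may still be present.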
